A study of Arabidopsis thaliana with 6 samples.

Results

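BCAT4 is the branched-chain aminotransferase gene AT3G19710 of Arabidopsis thaliana. Its transcript was followed on all 6 Affymetrix ATH1 arrays of a root tip experiment. It is 1 gene of the 13356 with a named probe set, and the platform annotation gives it 1 probe set among 22746 that are not array controls. BCAT4 was chosen by its signals on these same arrays, which an earlier reading had shown to be higher at 120 min, so its values below are a description and carry no test.

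The experiment held 2 arrays for each of 3 groups of root tips. Seedlings were 7 days old and had grown in continuous light on plates with sucrose. The GA group was labelled as treated with gibberellin (GA), a growth hormone, for 120 min, with the source name GA2oxOE1I, a genetic variation given as gene knock out and the genetic background Col-0. The untreated groups were Col-0 root tips at 120 min and Col-0 root tips at 0 min. The GA samples may thus differ from the untreated ones in plant line as well as in treatment, and these cannot be told apart. Nothing in the labels says that replicates came from separate cultures, so their spread may be partly technical, and nothing says how many seedlings an RNA sample pooled.

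Glucosinolates are sulfur-rich defence compounds of Arabidopsis and its relatives, stored intact and split by myrosinases when tissue is damaged. Those derived from methionine are built in stages: the side chain is lengthened, the core structure is formed, and the side chain is then modified. BCAT4 opens the first stage by removing the amino group of methionine in the cytosol. The resulting oxo acid passes into plastids through the carrier BAT5, is condensed with acetyl-CoA by the MAM synthases, and is then isomerised and oxidatively decarboxylated, which leaves a longer chain.

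BCAT4 was higher on every array taken at 120 min than on either array taken at 0 min, with or without the GA label, while the GA and untreated arrays at 120 min overlapped. The MAS5 signal, a linear brightness summarised per probe set and scaled to the same trimmed mean on each array, was 132 and 194 in GA roots at 120 min (replicates 1 and 2). It was 64.2 and 222 in untreated roots at 120 min, while the 0 min roots gave 43.0 and 41.9. From the highest, the order was untreated 120 min replicate 2, both GA arrays, untreated 120 min replicate 1 and then the 0 min arrays. The mean was 163 ± 43.8 for GA roots, 143 ± 111 for the untreated group at 120 min and 42.5 ± 0.78 for the 0 min group (SD, n = 2 arrays). The GA mean and the untreated mean at 120 min lay closer together than the SD of either group. In bulk root tips, a change in the number of cells that express the gene cannot be told apart from a change in RNA per cell.

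**Figure D1:**
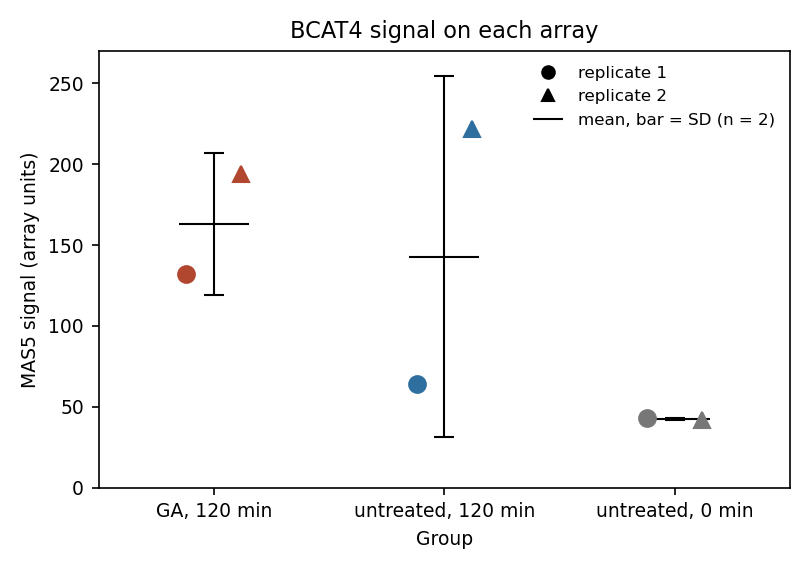
MAS5 signal of BCAT4 (vertical axis, array units) on each of the 6 arrays, by group (horizontal axis); points are arrays, horizontal marks are group means and bars are SD (n = 2). The GA arrays (132 and 194) lie between the untreated arrays at 120 min (64.2 and 222), and the 0 min arrays (43.0 and 41.9) lie below all of them.

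Set against the other probe sets of its own array, BCAT4 lay in the upper part of the distribution at 120 min and in the middle at 0 min. Its signal exceeded 78.9% and 85.0% of probe sets on the GA arrays, against 62.2% and 86.9% for the untreated group at 120 min. At 0 min it exceeded 50.3% and 51.4%. As a multiple of the array median, the signal was 3.07 and 4.84 on the GA arrays, 1.65 and 5.59 for the untreated group at 120 min, and 1.01 and 1.06 for the 0 min group.

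The spread between replicates was unequal among the groups. The replicates were 1.47-fold apart in GA roots, 3.45-fold apart in untreated roots at 120 min and 1.03-fold apart at 0 min. On the log2(signal + 16) scale these gaps were 0.50, 1.57 and 0.027, beside medians over all 13647 tested probe sets of 0.37, 0.28 and 0.25 for the same groups. The gap in untreated roots at 120 min was larger than that of 99.4% of tested probe sets, and the gap at 0 min was larger than that of 6.23%.

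The comparison of GA with untreated roots at 120 min asks what the labelled treatment, together with any difference in plant line, changes. BCAT4 differed by 0.35 in log2(signal + 16), which is 1.28-fold higher in GA roots on that scale. Replicate 1 of GA roots lay 0.89 above replicate 1 of untreated roots, while replicate 2 of GA roots lay 0.18 below its untreated counterpart (a difference of -0.18). The direction therefore depended on which untreated array was used: it was -0.43 without untreated 120 min replicate 1 and 1.14 without untreated 120 min replicate 2. Of the tested probe sets, 53.4% had opposite directions in the 2 replicate numbers of this comparison. A larger difference was found for 1170 tested probe sets, and 91.4% had a smaller one.

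The comparison of untreated roots at 120 min with those at 0 min follows time without treatment. BCAT4 differed by 1.24, or 2.36-fold higher at 120 min on the log2(signal + 16) scale (rank 11 of 13647 from the highest difference). The replicate numbers gave 0.44 and 2.04. Without untreated 120 min replicate 2 the difference was 0.46, and without untreated 120 min replicate 1 it was 2.02. Of the tested probe sets, 22.7% were likewise higher at 120 min in both replicate numbers.

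The comparison of GA roots at 120 min with untreated roots at 0 min holds time, treatment and any difference in plant line. BCAT4 differed by 1.59, or 3.02-fold higher in GA roots on the same scale (rank 5 of 13647), with 1.33 and 1.86 for the 2 replicate numbers. With each array left out in turn it stayed between 1.34 and 1.85. The comparisons share arrays, so their differences are not separate evidence.

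**Figure D2:**
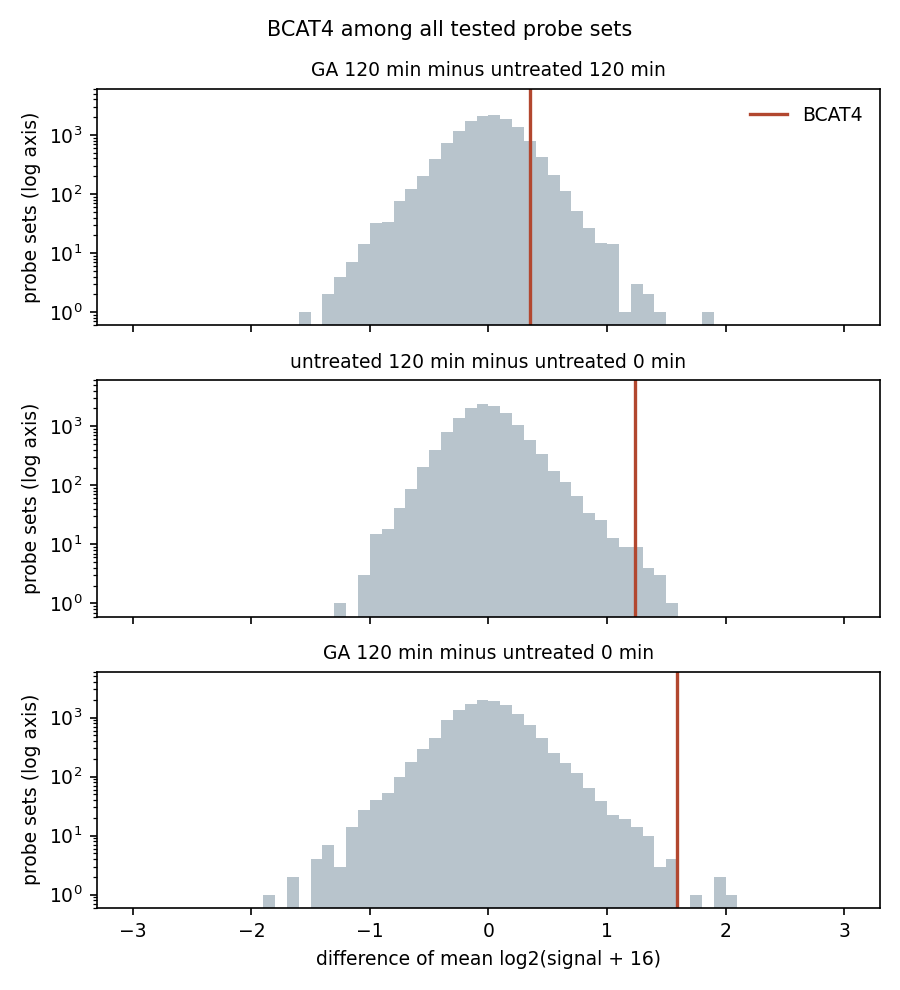
Number of tested probe sets (vertical axis, log scale) by difference of mean log2(signal + 16) (horizontal axis) in the 3 comparisons, with the difference of BCAT4 as a line. BCAT4 lies within the bulk for GA against untreated roots at 120 min (0.35) and in the upper tail for untreated roots at 120 against 0 min (1.24) and GA roots against 0 min (1.59).

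The lowest signal of BCAT4 at 120 min was 1.49 times its highest signal at 0 min. All 4 arrays at 120 min lay above both arrays at 0 min for 661 of the tested probe sets (4.84%), and 15 tested probe sets, BCAT4 among them, had a gap at least as large as 1.49. Since BCAT4 was chosen for this pattern, the count places it among the other probe sets and supports nothing further.

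Across all tested probe sets, limma with Benjamini-Hochberg adjustment called 0 of 13647 (0%) in each of the 3 comparisons. At an unadjusted p under 0.05 there were 152 (1.11%) for GA against untreated roots at 120 min, 147 (1.08%) for untreated roots at 120 against 0 min, and 352 (2.58%) for GA roots against untreated roots at 0 min. With 1 array left out these counts ran from 101 to 1473, from 48 to 414 and from 135 to 1732. The highest count of each comparison with GA roots came without GA replicate 2, which left GA replicate 1 as the only GA array. The highest for untreated roots at 120 against 0 min came without untreated 120 min replicate 1. The 101 came without untreated 0 min replicate 2, and the 48 and 135 without untreated 0 min replicate 1. The 95% confidence interval of a difference reached 0.64 in log2 to either side in the median probe set. The number of arrays limits this precision.

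Array quality went with the replicate number. The actin probe sets at the 3' and 5' ends of the transcript give a signal ratio that rises when RNA is degraded. For replicates 1 and 2 it was 14.8 and 2.52 in GA roots, 4.44 and 2.22 in the untreated group at 120 min, and 4.94 and 2.43 in the 0 min group. The same ratio for GAPDH spanned less: 1.76 and 0.81 in GA roots, 1.12 and 0.76 in the untreated group at 120 min, and 1.36 and 1.03 in the 0 min group. Both ratios were higher on replicate 1 in every group, and both were highest on GA replicate 1. BCAT4 was lower on replicate 1 than on replicate 2 at 120 min, but not at 0 min. The part of array quality in the BCAT4 signal was not tested.

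Markers were read for the labelled tissue and for cells that could travel with it. Of 12 markers of root tip cell types, 1 had a named probe set: AGL42, a quiescent centre marker, read 91.3 and 76.1 in GA roots, 60.6 and 102 in untreated roots at 120 min and 63.4 and 85.3 at 0 min. The other 11 were not analysed here, so the tissue label was checked on a single gene. Of 5 root hair markers, EXPA7 and EXPA18 had named probe sets, and their summed signal was 449 and 527 in GA roots, 560 and 632 in untreated roots at 120 min and 570 and 700 at 0 min.

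Green tissue markers were read on each array, and 1 array was the highest for both them and BCAT4. Of 5 markers, RCA (Rubisco activase) and LHCB4.1 (a light-harvesting protein) had named probe sets. RCA lay above the array median on every array. LHCB4.1 lay below it on GA replicate 1 (41.9 against a median of 43.1) and above it on the others. Detection calls were not used, so presence was not tested. Their summed signal was 151 and 275 in GA roots, 183 and 462 in untreated roots at 120 min and 228 and 276 at 0 min. Untreated 120 min replicate 2 was thus the highest array for both BCAT4 and the green markers. GA replicate 1, with 132 for BCAT4, was the lowest of the 6 for the green markers. The part of green tissue in the BCAT4 signal was not tested.

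Other genes of the pathway and of related metabolism came from 11 lists with 100 genes in all, BCAT4 included. The lists covered chain elongation, core synthesis, side-chain modification, the indole branch, regulators, transport and breakdown of glucosinolates. They also covered the BCAT family and leucine, methionine and sulfate metabolism, which lie outside or around the pathway. Members of any list are called pathway genes below. Of these, 17 had a named probe set, 15 besides BCAT4 passed the signal filter and 1 lay below it. The remaining 83, among them every other gene of chain elongation and all of the indole branch, were not analysed here. None of the 15 passed the adjusted threshold in limma in any comparison (lowest adjusted p = 0.999 for GA against untreated roots at 120 min and 1.00 for the other comparisons).

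Core synthesis was represented by 3 genes. UGT74B1, the glucosyltransferase that makes desulfoglucosinolates, read 193 and 197 in GA roots, 143 and 203 in untreated roots at 120 min and 78.4 and 135 at 0 min. Its lowest signal at 120 min, 143, lay close to its highest at 0 min, 135, beside 64.2 and 43.0 for BCAT4. With that narrower gap, all 4 arrays at 120 min lay above both at 0 min, as for BCAT4, and the GA and untreated arrays overlapped. UGT74B1 was the single gene of the 15 with that order (661 of all tested probe sets, 4.84%, had it). Its log2 differences were 0.18 (95% confidence interval -0.48 to 0.83) for GA against untreated roots at 120 min, 0.64 (-0.0068 to 1.30) for 120 against 0 min and 0.82 (0.17 to 1.47) for GA roots against 0 min, with adjusted p-values of 0.999, 1.00 and 1.00 in limma. The difference at 120 against 0 min was 0.31 without untreated 0 min replicate 1 and 0.98 without untreated 0 min replicate 2, and that of GA roots against 0 min was 0.48 and 1.16 without the same arrays.

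The glutathione S-transferase gene GSTU20 read 52.0 and 36.5 in GA roots, 48.0 and 43.1 in untreated roots at 120 min and 47.7 and 19.1 at 0 min. Its low value on 0 min replicate 2 had no counterpart on the other arrays. For GSTU20, untreated roots at 120 min lay 0.38 in log2 above those at 0 min. This was -0.051 without untreated 0 min replicate 2 and 0.81 without untreated 0 min replicate 1. AT2G31790, placed in the core list by its locus, read 9.24 and 40.4 in GA roots, 41.1 and 67.9 in untreated roots at 120 min and 47.6 and 26.8 at 0 min. Both GA arrays lay below both untreated arrays at 120 min, as for 10.3% of tested probe sets, but the nearest values were 40.4 and 41.1. The 9.24 came from GA replicate 1, which had the actin ratio of 14.8, and the part of array quality was not tested. The 0 min arrays overlapped the GA arrays. GA roots differed from untreated roots at 120 min by -0.88 in log2 (-1.86 to 0.11, adjusted p = 0.999 in limma). The difference was -0.30 without GA replicate 1 and -1.46 without GA replicate 2. For AT2G31790, untreated roots at 120 min lay 0.41 above those at 0 min, and their arrays overlapped. Of the side-chain genes, AOP3, a dioxygenase, lay below the filter and ranged from 1.11 to 25.8 over the 6 arrays.

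Of the regulators, MYC3 and MYC4, bHLH partners of the MYB activators of glucosinolate genes, were measured. MYC3 read 29.2 and 52.4 in GA roots, 43.6 and 50.8 in untreated roots at 120 min and 63.96 and 56.1 at 0 min. All 4 arrays at 120 min lay below both at 0 min, the opposite order to BCAT4 (884 of all tested probe sets, 6.48%, had it), with differences of -0.27 for untreated roots at 120 against 0 min (adjusted p = 1.00) and -0.45 for GA roots against 0 min (adjusted p = 1.00). The -0.45 became -0.15 without GA replicate 1 and -0.75 without GA replicate 2. MYC4 read 27.9 and 54.2 in GA roots, 42.4 and 37.2 in untreated roots at 120 min and 34.2 and 45.2 at 0 min, with no order among the groups.

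The importers GTR1 and GTR2 move glucosinolates between tissues. GTR2 read 47.3 and 170 in GA roots, 86.8 and 209 in untreated roots at 120 min and 137 and 177 at 0 min, so that replicate 1 was below replicate 2 in every group. GTR1 read 48.8 and 56.8 in GA roots, 55.6 and 33.3 in untreated roots at 120 min and 51.1 and 63.4 at 0 min. PYK10, an abundant root beta-glucosidase listed with the breakdown enzymes, read 4227 and 5444 in GA roots, 5124 and 5511 in untreated roots at 120 min and 4805 and 4885 at 0 min. None of these 3 set the 120 min arrays apart from the 0 min arrays in both GA and untreated roots.

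The BCAT family, known mainly for the metabolism of leucine, isoleucine and valine, had 2 further measured genes. BCAT5, a branched-chain aminotransferase gene, read 136 and 185 in GA roots, 154 and 202 in untreated roots at 120 min and 161 and 187 at 0 min. AT1G50110, placed in the family by its locus, read 172 and 147 in GA roots, 215 and 143 in untreated roots at 120 min and 170 and 205 at 0 min. Their log2 differences lay between -0.21 and 0.020 in the 3 comparisons, and their groups overlapped in each. The -0.14 of AT1G50110 between GA and untreated roots at 120 min was 0.13 without untreated 120 min replicate 1 and -0.40 without untreated 120 min replicate 2. The other 4 members of the family were not analysed here.

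Methionine and sulfate metabolism had 5 measured genes. CBL, the cystathionine beta-lyase of methionine synthesis, read 527 and 488 in GA roots, 455 and 373 in untreated roots at 120 min and 480 and 459 at 0 min. It differed by 0.29 (-0.22 to 0.80) between GA and untreated roots at 120 min. This was 0.15 without untreated 120 min replicate 2 and 0.43 without untreated 120 min replicate 1. MGL, a methionine gamma-lyase, HMT1, a homocysteine methyltransferase, and MMT, a methionine S-methyltransferase, differed by -0.022, 0.081 and 0.048 in the same comparison, and MMT by 0.29 without GA replicate 1 and -0.20 without GA replicate 2. ATPS3, an ATP sulfurylase of sulfate assimilation, read 52.1 and 88.6 in GA roots, 46.7 and 58.8 in untreated roots at 120 min and 48.3 and 49.5 at 0 min. It differed by 0.30 (-0.34 to 0.95) between GA and untreated roots at 120 min, and by 0.38 (-0.27 to 1.02) between GA roots and 0 min roots. In the latter the GA arrays lay above the 0 min arrays, as for 13% of all tested probe sets. Without GA replicate 2 these were -0.0076 and 0.069, and without GA replicate 1 they were 0.61 and 0.69. The adjusted p of each in limma was 0.999 for GA against untreated roots at 120 min and 1.00 otherwise.

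Pooled over the lists, the 15 genes stayed close to the background, although the lists differed among themselves. For GA against untreated roots at 120 min, 6 were higher and 9 lower with a median of -0.022, beside 0.0092 over all tested probe sets, and the arrays did not overlap for 1 higher and 1 lower (11.4% and 10.3% of all tested probe sets). For untreated roots at 120 against 0 min, 8 were higher and 7 lower with a median of 0.0082, beside -0.020, and the arrays did not overlap for 2 higher and 2 lower (11.3% and 15.8% of all tested). In that comparison the 3 core synthesis genes were all higher, with a median of 0.41. Both transport genes were lower, as were 3 of the 4 methionine genes. Lists of this size were not tested as sets. For GA roots against untreated roots at 0 min, 7 were higher and 8 lower with a median of -0.014, beside -0.012, and the arrays did not overlap for 3 higher and 1 lower (13% and 15% of all tested).

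**Figure D3:**
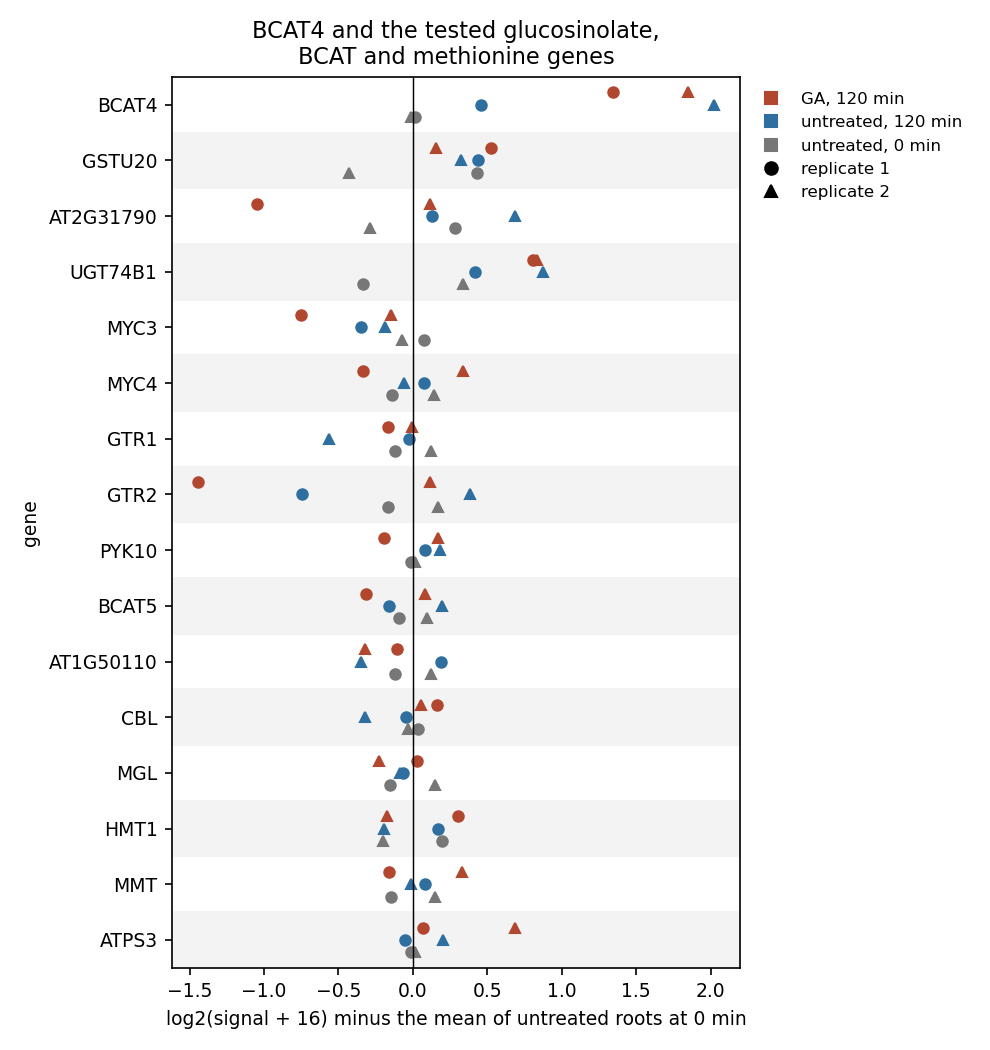
Log2(signal + 16) of BCAT4 and the 15 tested genes of the glucosinolate, BCAT family, methionine and sulfate lists (rows) on each array. Values are minus the mean of untreated roots at 0 min (horizontal axis, log2 units). Colours mark groups and shapes mark replicate numbers. Of these rows BCAT4 has the widest separation of the 120 min arrays from the 0 min arrays, UGT74B1 has the same order with a smaller separation, and MYC3 has the opposite order.

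The profile of each pathway gene over the 6 arrays was set beside that of BCAT4 by Pearson's r in log2(signal + 16), as a description. The arrays share their scaling, quality and replicate offsets, and 6 points are few. UGT74B1 had the highest value, 0.85, which exceeded that of 98.2% of tested probe sets, followed by ATPS3 with 0.71 (94.1%). The other BCAT genes had 0.27 (BCAT5) and -0.80 (AT1G50110), and MYC3 had -0.35. The median over all tested probe sets was -0.084.

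The 8 named genes most like BCAT4 by the same measure, out of 7452 named and tested probe sets, were AT4G14240, LCR69, AT1G53620, AT5G18390, AT3G11530, AT5G59680, AT4G17900 and AT5G05960, with r between 0.967 and 0.984 over the 6 arrays. Over named and unnamed probe sets, 17 reached 0.967 and 120 (0.879%) exceeded 0.9. None of the 8 is a member of the pathway lists. By Spearman's correlation 0 of them were among the 8 most like BCAT4, since 8 other named genes had exactly its order of arrays. AT4G14240, AT1G53620, AT3G11530, AT5G59680 and AT5G05960 came next, tied at rank 9 with 0.943. LCR69 and AT5G18390 had 0.886, and AT4G17900 had 0.771. LCR69, a defensin-type gene of the low-molecular-weight cysteine-rich family, read 1676 and 1881 in GA roots, 1335 and 1772 in untreated roots at 120 min and 1186 and 1199 at 0 min. AT1G53620 read 46.2 and 72.4 in GA roots, 25.7 and 82.4 in untreated roots at 120 min and 3.84 and 7.39 at 0 min.

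Pearson's r takes no account of size, and the 8 genes differed in it. The difference of GA roots from untreated roots at 0 min in log2(signal + 16) was 1.05 for AT5G05960, beside 1.59 for BCAT4, and 0.18 to 0.61 for 6 others. For AT1G53620 it was 1.78, but both of its 0 min signals lay below the 25.8 of the signal filter, so the added 16 sets much of that value. Its mean signals were 59.3 ± 18.5 in GA roots and 5.61 ± 2.52 at 0 min (SD, n = 2). As a ratio, but not in signal units, these lay farther apart than the 163 and 42.5 of BCAT4. AT5G05960 read 518 and 561 in GA roots, 309 and 659 in untreated roots at 120 min and 215 and 294 at 0 min. In all 8, untreated 120 min replicate 1 was the lowest array at 120 min, as it was for BCAT4. For AT4G17900 that array read 112.5, between the 0 min arrays at 109 and 113. The other 7 had all 4 arrays at 120 min above both at 0 min, as 4.84% of tested probe sets did, and the choice by likeness to BCAT4 favours this order.

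**Figure D4:**
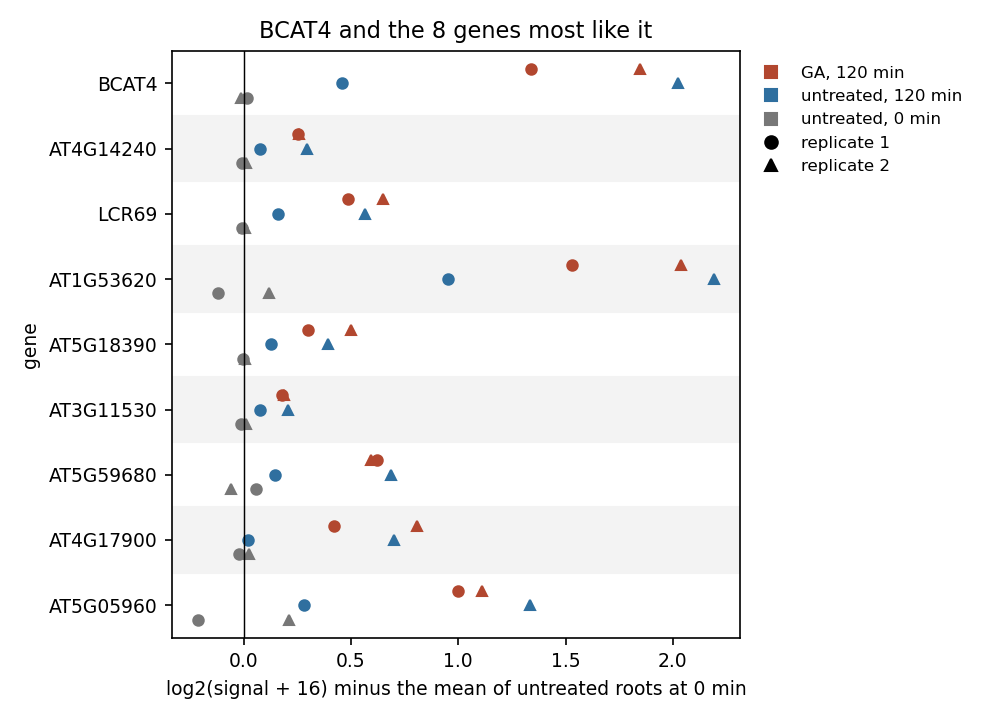
Log2(signal + 16) of BCAT4 and of the 8 named genes with the highest Pearson correlation with it (rows) on each array, minus the mean of untreated roots at 0 min (horizontal axis, log2 units); colours mark groups and shapes mark replicate numbers. The genes share the low position of untreated 120 min replicate 1 among the 120 min arrays and differ in size, and the 0 min signals of AT1G53620 (3.84 and 7.39) lie below the signal filter.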

How the data were processed

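Total RNA was labelled with biotin in one cycle and hybridised to ATH1 arrays, per the labels' protocols. The deposited values are linear signal intensity per probe set. MAS5 and GCOS are named in the submitters' processing notes without version or role, and the genome build is not given in the sources used here. Each array had a mean of 100.01 after 2% of values were trimmed at either end. Detection calls were not used here. Groups and replicate numbers came from sample titles.

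The 64 control probe sets were set aside. Signals were taken to log2(signal + 16), which understates differences of dim genes, and 13647 probe sets with a mean signal above the 40th percentile (25.8) were tested. All 6 arrays entered 1 limma 3.58.1 fit in R 4.3.3 (lmFit, eBayes with trend, 3 residual degrees of freedom), with two-sided tests, Benjamini-Hochberg adjustment over all tested probe sets and a threshold of 0.05. The fit was tested on simulated data. Correlations and tables were made in Python 3.11.15. Names came from the platform annotation of 2016, updated by gene identifier through the RefSeq table of assembly TAIR10.1: 13513 probe sets matched 1 gene, 503 several, and 8730 were not listed. Neither coordinates nor sequences are printed.

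BCAT4 and the gene lists were chosen with earlier results of these data known. The genes named were BCAT4, every measured member of the lists (the brightest probe set of a gene, and signals alone below the filter) and the 8 named genes with the highest correlation with BCAT4. Alternatives were pseudocounts 1 and 64, no filter or the 60th percentile, quantile normalization, median centring, no trend, the replicate number as a block and each array left out.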

Additional observations from a re-analysis of the deposited data

How the results depend on the processing

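The count of probe sets past the adjusted threshold in limma was 0 in all 3 comparisons under each alternative that kept all arrays. With each array left out it ranged from 0 to 0 for GA against untreated roots at 120 min and for untreated roots at 120 against 0 min, and from 0 to 7 for GA roots against 0 min. The upper end of that range came without GA replicate 2, which left GA replicate 1, with the highest actin ratio, as the only GA array. BCAT4 was not among those calls, and the cause was not tested. The BCAT4 difference ranged from -0.43 to 1.14 for GA against untreated roots at 120 min, from 0.46 to 2.02 for untreated roots at 120 against 0 min and from 1.34 to 1.85 for GA roots against 0 min with each array left out. It kept its sign under each alternative that kept all arrays, although the replicate block could not have changed it. Of the 15 pathway genes, 7 of 225 differences changed sign with all arrays kept (in MYC4, HMT1 and MMT) and 46 of 270 with 1 array left out. With all arrays kept, 0 passed the threshold. The 225 include the replicate block, and the 270 include arrays outside the comparison. Neither could change a difference, so both shares are lower than among the cases that could change. The list of 8 genes most like BCAT4 kept 5 under quantile normalization and 0 under Spearman's correlation, where 8 named genes with exactly the order of BCAT4 took their place. Replicate differences correlated between groups at 0.31 to 0.36 over 13647 probe sets, but the labels give only a shared number for 2 replicates. With a replicate block the counts of calls were 0 in each comparison. Those at an unadjusted p under 0.05 were 437, 403 and 805 in the order of the comparisons above. Each group holds 1 array of each replicate number, so the block could not change the BCAT4 differences of 0.35, 1.24 and 1.59. With 2 arrays a group, precision is low.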

Other observations

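The order of the 6 arrays by BCAT4 signal was shared exactly by 19 other tested probe sets, of which 8 matched 1 gene. Of the protein-coding genes next to BCAT4 in the RefSeq gene order, chosen by position after its values were seen, IKU2 on one side read 19.0 and 2.51 in GA roots, 1.82 and 2.16 in untreated roots at 120 min and 4.85 and 8.52 at 0 min, all below the 25.8 of the signal filter. On the other side the nearest gene with a named probe set, AT3G19740, read 250 and 179 in GA roots, 221 and 151 in untreated roots at 120 min and 197 and 222 at 0 min. AT3G19740 did not have the 120 min arrays above the 0 min arrays in either GA or untreated roots.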
